A study of Arabidopsis thaliana with 32 samples.

Results

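The response of Arabidopsis thaliana callus to dexamethasone after 12 h was measured on 4 two-colour cDNA arrays, out of 32 arrays in a time course of 0, 2, 4, 6, 8, 10, 12 and 22 h with 4 arrays each. All tissue carried 35S:LFY-GR and, per the labels, came from root explants, so both sides of each comparison held the transgene. At 12 h one RNA on each array came from callus given a dexamethasone-containing solution for 12 h and the other from callus given a control solution for 12 h, with dexamethasone in channel 2 on replicates 1 and 3 and in channel 1 on replicates 2 and 4. Arrays of 0 h (the same solutions, for 0 h), 10 h and 22 h serve as comparisons. The members are the features with at least 1 value below the recording limit in each orientation at 12 h, which were 10736 of the 10816 features on the array.

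LEAFY (LFY) is a plant transcription factor that turns shoot meristems into floral meristems and switches on floral regulators such as APETALA1. Fused to the steroid-responsive region of the glucocorticoid receptor (GR), the protein stays largely in the cytoplasm until the steroid dexamethasone is given, after which it can enter the nucleus. The 35S promoter is active in most plant tissues, so the fusion protein is not limited to the cells where LFY normally acts, and the number of plant lines behind the callus is not given in the sources used here. Callus is dedifferentiated, dividing tissue. The array was, per the labels, enriched for transcripts of flowers.

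The features carry plate positions such as GP005B2 in place of gene names, and 0 had an entry in the TAIR10.1 gene table. Known LFY targets, and the marker genes of callus, root and flower, therefore could not be looked up, and the tissue could not be checked against its markers. Features are described as groups, and 4 are named. A transcript may be represented by more than 1 clone, which means that the number of genes behind a count of features is unknown. In bulk tissue, fewer cells of a type and less RNA per cell cannot be told apart.

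Values are log2 ratios of the channels, with replicates 2 and 4 turned so that all 4 arrays read the same way. Where the authors divided channel 2 by channel 1, the positive side means more RNA with dexamethasone than with control. This is likely, being the usual convention, but no source used here states the numerator, and with the opposite numerator the sides change places. As deposited, replicates 1 and 3 correlated at r = 0.393 across features and replicates 2 and 4 at r = 0.277. Between the orientations r was -0.298 (replicates 1 and 2), -0.350 (1 and 4), -0.210 (2 and 3) and -0.318 (3 and 4). Features on an array share its hybridisation, and these correlations are given as descriptions. The replicate arrays at 12 h thus read opposite ways between the orientations before turning. Without the 307 features called at 12 h, r after turning was 0.136, 0.188, 0.00509 and 0.0510 between the orientations, in the same order. Within an orientation it was 0.224 (replicates 1 and 3) and 0.104 (2 and 4). Leaving out called features itself favours a lower r. Over 56 pairs of 1 array of 12 h and 1 of the same orientation at another time, the lowest r was -0.0288. Whether the 4 arrays hold 4 pairs of RNA samples or dye swaps of 2 pairs is not stated in the labels. The p-values therefore rest on array-to-array spread, part or all of which may be technical.

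The 4 arrays had values for 10646 to 10796 features, and their turned medians lay between -0.02 and 0.02. Replicates 1 and 2 had 112 and 151 values at the upper recording limit, a 100-fold ratio, and replicates 3 and 4 had 2 and 29. At the lower limit there were 4, 3, 21 and 36 values on replicates 1 to 4. Limit values, 358 on 254 features, were treated as missing. Of the 81 features at a limit in both orientations, 76 were at the upper limit as deposited in both, so that turning put them on opposite sides.

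Dexamethasone and control RNA differed at 12 h for 307 features, with 251 positive and 56 negative ratios. The ratio of each feature was tested against 0 with limma across all 10736 features, with Benjamini-Hochberg adjustment and a threshold of 0.05. The calls made up 2.86% of the features tested, 2.34% as positive and 0.522% as negative calls. An unadjusted p under 0.05 was reached by 1275 features (11.9%). Over all features tested there was no such lean, since 48.2% had a ratio above 0 and the median was -0.01. The spread of a feature was estimated from all 32 arrays. With the 4 arrays of 12 h alone limma called 108 features, 104 of them among the 307, and without replicate 1 at every time point it called 186. With a term for replicate number in place of the dye term it called 481.

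**Figure D1:**
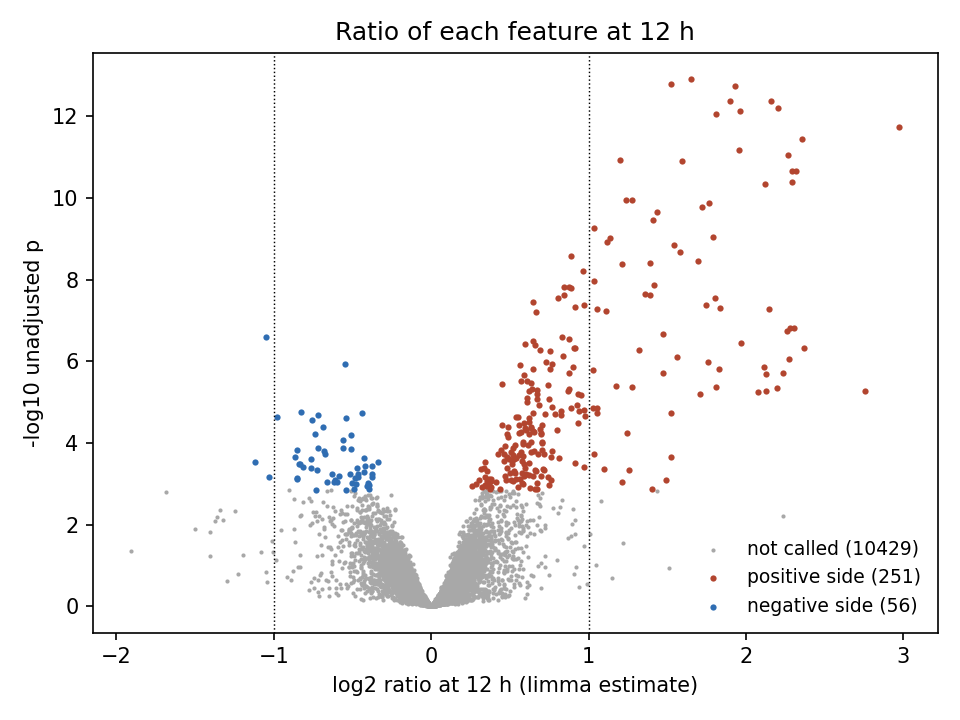
Each point is a feature, with its log2 ratio at 12 h on the x axis and -log10 of the unadjusted limma p on the y axis. The 251 positive calls reach 2.97 and the 56 negative calls reach -1.12, and the dotted lines mark a 2-fold ratio.

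The positive calls were larger as well as more numerous. Their median log2 ratio was 0.72, a 1.64-fold ratio, with quartiles of 0.58 and 1.23 and a range from 0.26 to 2.97. On this side 67 features (26.7%) lay under 1.5-fold, 105 (41.8%) between 1.5- and 2-fold, 57 (22.7%) between 2- and 4-fold and 22 (8.76%) over 4-fold. None of these features passed 8-fold. Values at the 100-fold limit had been set to missing, and 0 called features had one at 12 h. Outside the calls, 3 features stood at the limit on the positive side in both orientations at 12 h. The negative calls had a median of -0.59, a 1.51-fold ratio, and ran from -0.34 to -1.12. Of these 27 lay under 1.5-fold, 26 between 1.5- and 2-fold, 3 between 2- and 4-fold and 0 beyond it. The precision of the calls was close on both sides, with a median SE of 0.142 for the positive and 0.145 for the negative calls, against 0.133 over all features tested.

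Large ratios that were not called had large SEs, which follows from the test, since it weighs each ratio against its SE. A ratio beyond 2-fold without a call was found for 8 positive and 18 negative features, with median SEs of 0.565 and 0.524. Of the 8 positive features 4 lacked a value on at least 1 array, and of the 18 negative ones 14 did. Of the 82 called features beyond 2-fold, by contrast, 79 positive and 3 negative, all had a value on all 4 arrays. The same was true of all 251 positive and 56 negative calls of any size.

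Most called features had 1 sign on all 4 arrays, which a choice made on these same arrays favours. For the positive calls the median log2 ratio was 0.82 on replicate 1, 0.74 on replicate 2, 0.70 on replicate 3 and 0.79 on replicate 4. The 4 medians lay close together, and 247 of the 251 features (98.4%) had the same sign on every array. The same held for 22.2% of all features with 4 values, a share that rests on the same arrays as the calls. In 42 positive features the weakest of the 4 arrays was still beyond 2-fold. For the negative calls the medians were -0.76, -0.66, -0.58 and -0.45 on replicates 1 to 4, and 55 of the 56 features had 1 sign throughout. Replicate 4 was nearest to 0 and replicate 1 farthest from it, with 18 negative features beyond 2-fold on replicate 1 and 0 on replicate 4.

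**Figure D2:**
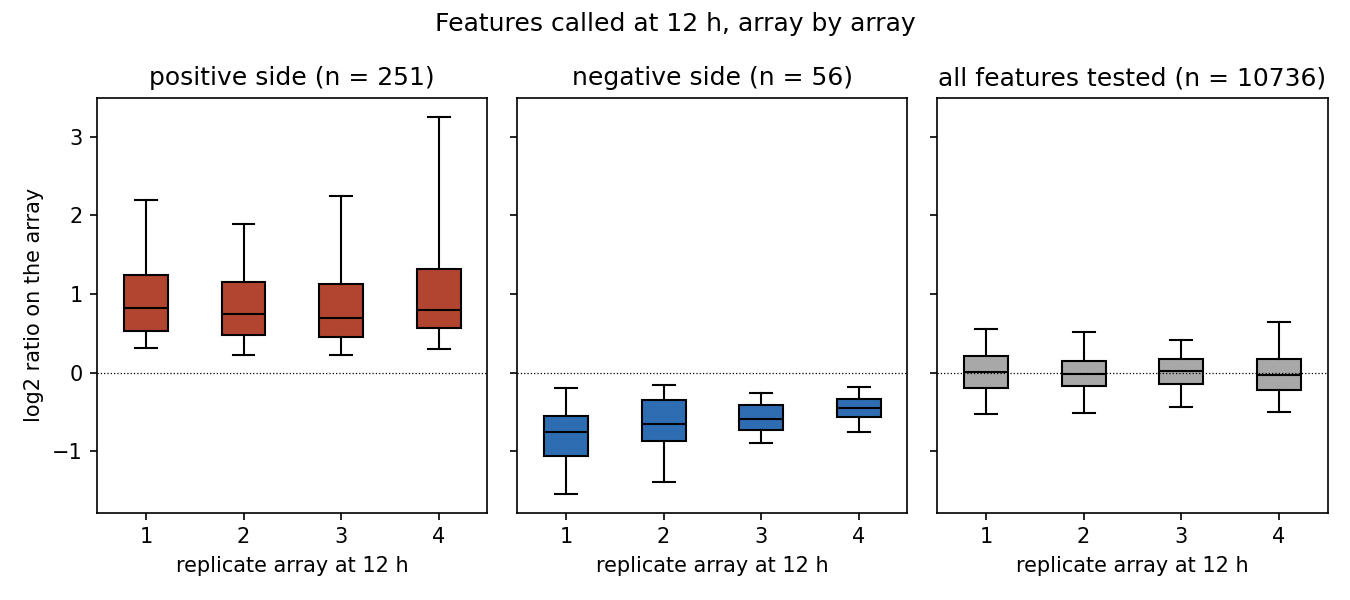
Boxes give the median and quartiles, and whiskers the 5th and 95th percentiles, of the log2 ratios on each array of 12 h for the 251 positive calls, the 56 negative calls and all features tested. The positive medians stay between 0.70 and 0.82 on the 4 arrays, while the negative medians run from -0.45 to -0.76.

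Reading each array with calls made without it separated the sides further. Calls on the other 3 arrays of 12 h and all arrays of the other time points gave 170 to 211 positive features, whose median on the array left out was 0.88, 0.76, 0.70 and 0.88 on replicates 1 to 4. Between 96.8% and 99.4% of these features had the positive sign there. The negative calls made this way numbered 16, 26, 31 and 37 without replicate 1, 2, 3 and 4, against 56 with all arrays. They stood at -0.51, -0.32, -0.41 and -0.34 on the array left out, where the fit on the others gave -0.61, -0.57, -0.78 and -0.84. On the array left out, 69.2% to 89.2% had the negative sign. Were the arrays dye swaps, the calls would still rest on the partner of the array left out.

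Among the features tested, GP005B2 had the largest positive ratio at 12 h. It stood at 3.06, 2.55, 2.49 and 3.80 on replicates 1 to 4. All 4 arrays were far above its 0 h arrays, which held -0.41, 0.10, -0.34 and 0.56. The limma estimate was 2.97 (SE 0.24, adjusted p = 2.22e-09), a 7.85-fold ratio. Before 12 h its mean was 0.46 ± 0.99 (SD, n = 4) at 2 h and 0.74 ± 0.76 at 4 h, neither of which passed the test, and 2.09 ± 0.43 at 6 h and 2.48 ± 0.44 at 10 h, which did. At 8 h it also passed, with a lower mean of 1.54 ± 1.13 on 3 arrays and no used value on replicate 2. At 22 h it was 3.82 ± 0.37. The 12 h ratio exceeded that of 0 h by 2.995 (SE 0.34, limma adjusted p = 2.77e-06), while the step from 12 to 22 h was 0.85 (SE 0.34, adjusted p = 0.987).

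GP009E11 had the second largest ratio. It stood at 3.13, 2.39, 2.42 and 3.09 on the 4 arrays of 12 h, with all 4 close together and above the -0.27, 0.06, -0.21 and 0.54 of 0 h. Its estimate was 2.76 (SE 0.49, limma adjusted p = 5.49e-04), a 6.75-fold ratio. The larger SE goes with a single value of 5.87 on replicate 1 at 4 h, where the other 3 arrays held 0.71, 0.21 and 0.92. With that value the 4 h ratio was called, at a mean of 1.92 ± 2.64 (SD, n = 4, limma adjusted p = 0.0340). The mean of 1.77 ± 0.40 at 6 h passed too (adjusted p = 0.0413), and that of 1.58 ± 0.73 at 8 h did not (0.0761). It was 2.40 ± 0.53 at 10 h and 3.76 ± 0.23 at 22 h, both called. The difference of 12 h from 0 h, 2.73, was near the threshold (SE 0.69, limma adjusted p = 0.0480).

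The most negative called ratio at 12 h was that of GP136D9, with -1.94, -1.58, -0.73 and -0.22 on replicates 1 to 4. Replicates 1 and 2 were low, and replicate 4 lay within the range of the 0 h arrays (0.17, -0.50, -0.30 and -0.25). The estimate was -1.12 (SE 0.27, limma adjusted p = 0.0145). Its difference from 0 h, -0.90 (SE 0.38), did not pass (adjusted p = 0.507). The call was lost without replicate 1 or 2 (adjusted p = 0.207 and 0.162), with the array of 12 h alone left out too (0.247 and 0.144). The same pattern of arrays stood at 22 h, with -1.82, -1.77, -0.44 and -0.45.

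GP089G2 was more even, at -1.28, -1.39, -0.89 and -0.65. All 4 arrays lay below those of 0 h, which were 0.57, 0.02, 0.52 and 0.13. Its estimate was -1.05 (SE 0.15, limma adjusted p = 4.49e-05), a 2.07-fold ratio, and it differed from 0 h by -1.36 (SE 0.22, adjusted p = 3.52e-04). Unlike both positive features it was furthest from 0 before 12 h, at -1.399 ± 0.149 (SD, n = 4) at 6 h, and stood at -0.73 ± 0.49 at 22 h. Neither of the steps from 10 to 12 h (0.02, SE 0.22) and from 12 to 22 h (0.32, SE 0.22) passed the test, with limma adjusted p-values of 0.99995 and 0.99992.

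Many of the largest ratios shared 1 profile. After the means of the time points and the dye effect had been taken out, 17 positive features on 16 plates formed a chain in which each correlated with at least 1 other at r above 0.9 over the 32 arrays. They include 12 of the 22 features over 4-fold and neither of the 2 named positive features. The group was found after the values had been seen and is given without a test. Its median at 12 h was 0.94 on replicate 1, 1.70 on replicate 2, 2.25 on replicate 3 and 3.60 on replicate 4. All 17 features were positive on every array, with the smallest values on replicate 1 and the largest on replicate 4. The features were chosen because they vary together between arrays, so a shared spread between arrays belongs to the choice. The range within the group was narrower than that between arrays, from 0.05 to 1.21 on replicate 1 and from 2.46 to 3.89 on replicate 4. The median SE was 0.353.

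At 2 h the group of 17, taken from the positive calls of 12 h, had a median per array of 1.17 ± 0.39 (SD, n = 4), against -0.14 ± 0.17 at 0 h. For 4, 6, 8 and 10 h the values were 1.31 ± 0.32, 1.15 ± 0.92, 1.45 ± 0.40 and 2.09 ± 0.65. They were 2.12 ± 1.12 at 12 h and 2.36 ± 1.12 at 22 h. None of its 12 features over 4-fold at 12 h was called at 2 h, since the positive calls of 2 h reached at most 1.84 at 12 h. The spread between arrays at 12 and 22 h was larger than the differences between the later means. A partner at r above 0.9 among all features was found for 9.84% of the positive calls with all 32 values, 14.3% of the negative calls and 8.45% of all such features. Grouped among themselves, the 244 positive calls with all 32 values made 226 separate profiles. Whether members of a group are clones of 1 transcript was not tested.

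**Figure D3:**
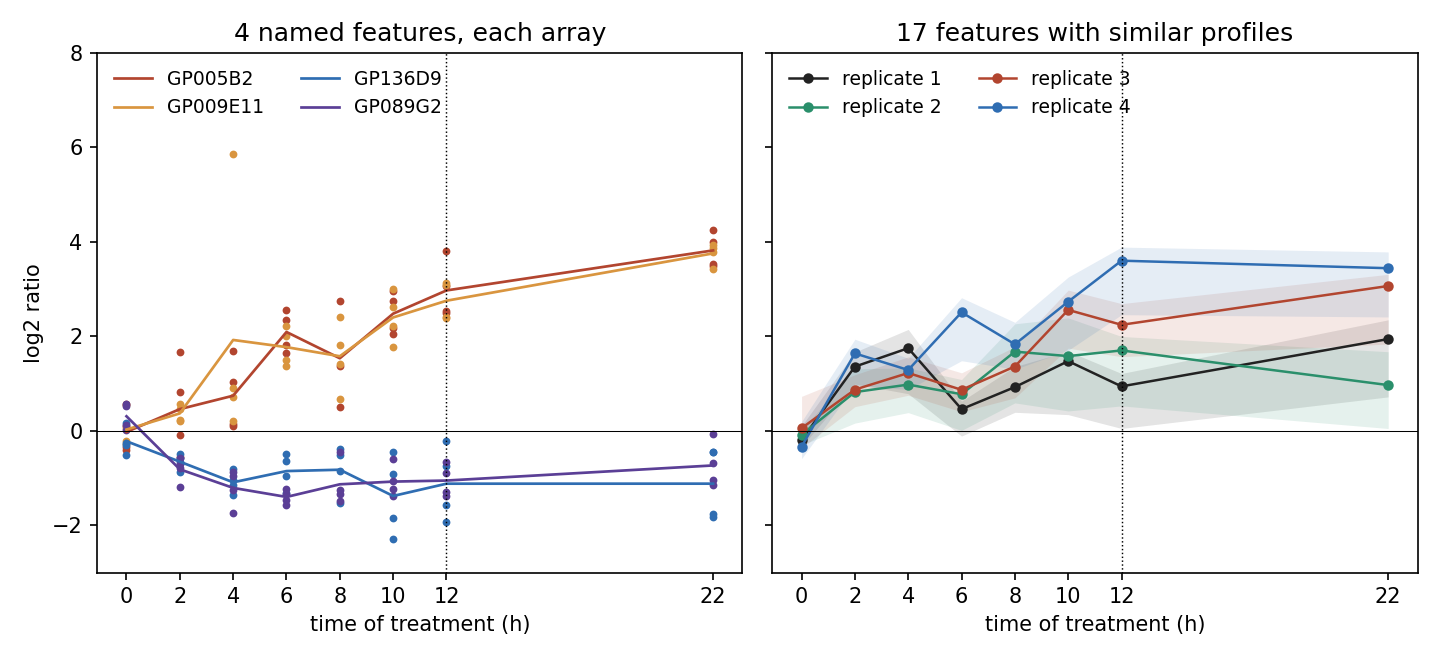
The left panel shows the log2 ratio of the 4 named features on every array (points) with the mean per time point (lines). The right panel shows the median (line) and full range (shading) of 17 features with similar profiles for each replicate number, which at 12 h had medians from 0.94 to 3.60.

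The 0 h arrays give the background of the comparison, since they carry the same solutions with 0 h of treatment. There limma called 0 of 10763 features, and 296 (2.75%) had an unadjusted p under 0.05. The 12 h ratio differed from the 0 h ratio for 111 features, 106 with the higher ratio at 12 h (0.99% of 10704 tested) and 5 with the lower one (0.0467%). All 106 were among the positive calls and all 5 among the negative calls at 12 h. Both tests use the same 12 h estimate and variance, which favours this overlap. The 106 had a median ratio of 1.34 at 12 h and -0.03 at 0 h, and they include all 22 positive features over 4-fold. For the 5 the medians were -0.72 at 12 h and 0.25 at 0 h. The features were chosen for this difference, so these medians are a description. This difference carries the error of 2 groups of arrays, with a median SE of 0.188, which limits how its counts can be set against 251 and 56. Without replicate 4 at every time point it called 73 features, and with the arrays scaled to one spread 147 higher and 31 lower at 12 h.

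Array by array, the 4 values at 12 h lay above all 4 at 0 h for 186 of the 251 positive calls, where 369 of all 10343 features with 8 values (3.57%) did so. For the negative calls the 4 values lay below all of 0 h in 34 of 56, against 193 of 10343 (1.87%). The calls were made on the 12 h values, so their shares are not independent of the choice.

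Followed back in time, the positive calls of 12 h were near 0 at 0 h and on the positive side from 2 h on. The median over these features, taken on each array, averaged 0.01 ± 0.03 (SD, n = 4) at 0 h. For 2, 4, 6, 8 and 10 h it averaged 0.24 ± 0.05, 0.38 ± 0.08, 0.56 ± 0.08, 0.65 ± 0.15 and 0.73 ± 0.09. The 12 h value was 0.76 ± 0.05 and the 22 h value 0.96 ± 0.09. The values at 10 and 12 h thus lay within their spread, and the 22 h arrays (1.04, 0.83, 1.01 and 0.94) were all above the 12 h arrays (0.82, 0.74, 0.70 and 0.79). The features were chosen at 12 h, so the medians at the other times are descriptions without a test.

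The negative calls had a flatter course. Their median averaged 0.01 ± 0.11 (SD, n = 4) at 0 h. For 2, 4, 6, 8 and 10 h it averaged -0.37 ± 0.10, -0.42 ± 0.08, -0.46 ± 0.19, -0.46 ± 0.08 and -0.48 ± 0.06. The 12 h value was -0.61 ± 0.13 and the 22 h value -0.49 ± 0.14. All 4 arrays were below 0 from 2 h on, and the values from 2 to 10 h overlapped. The 12 h value is the one the features were chosen on. Relative to 12 h, the median feature had 63.6% of its 12 h ratio already at 2 h on the negative side and 30.9% on the positive side. At 6 h the shares were 76.6% and 67.9%, and at 22 h they were 89.9% and 121%.

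**Figure D4:**
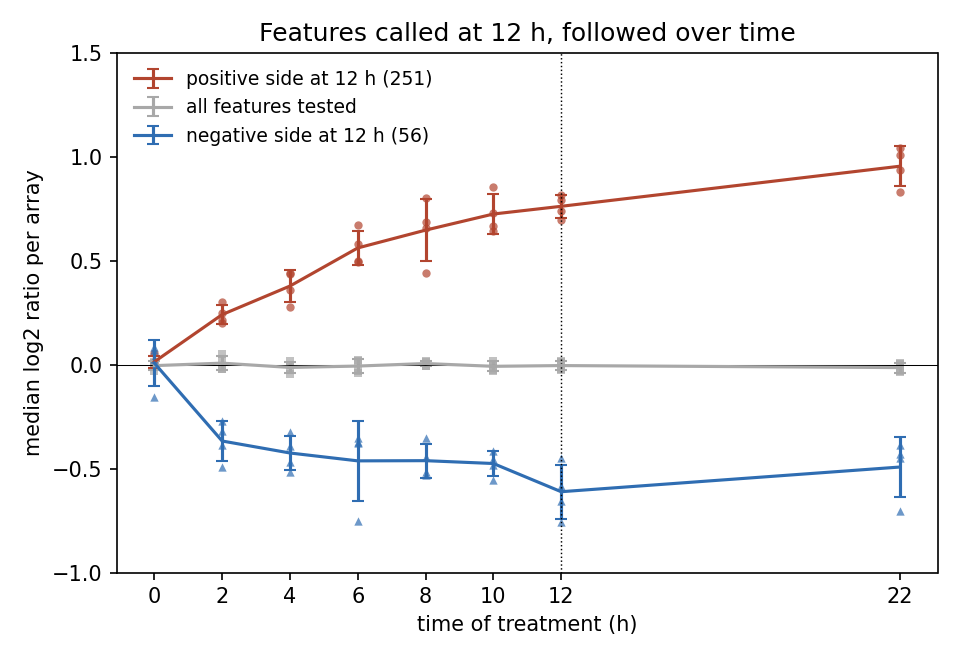
Points are the median log2 ratio on each array, and lines with bars the mean ± SD over the 4 arrays of a time point, for the positive calls of 12 h, the negative calls of 12 h and all features tested. The positive set goes from 0.01 at 0 h to 0.76 at 12 h and 0.96 at 22 h, and the negative set from 0.01 to -0.61 and -0.49.

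Most positive calls of 12 h had been called before. For 2, 4, 6, 8, 10 and 12 h, the number first called positive then was 16, 58, 85, 28, 27 and 37. Over all features tested, positive calls made up 0.95% at 4 h, then 2.11% (6 h) and 2.34% (8 h). In all, 176 (70.1%) were called on 4 or more occasions, 12 h included, and 15 on every one from 2 to 22 h. The share among all features is not given here. Each feature's variance estimate is common to all times, so repeated calls are not independent. The 16 positive calls of 2 h (0.149% of features tested then) were all called again at 12 h, and their median went from 0.70 at 2 h to 0.97 at 12 h and 0.99 at 22 h. The 37 features first called at 12 h had a median ratio of 0.59 then, of 0.31 at 10 h and of 0.70 at 22 h. A call at 12 h and at no other time was made for 12 features, with medians of 0.18 at 10 h, 0.52 at 12 h and 0.25 at 22 h. No positive call of 12 h was a negative call at another time.

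On the negative side the numbers first called at the same times were 7, 13, 6, 2, 9 and 19 of the 56. Negative calls made up 0.159% of all features tested at 2 h and 0.727% at 4 h, then 1.04% (6 h) and 0.823% (8 h). Calls on 4 or more occasions, 12 h included, were made for 25 (44.6%), again without the share among all features. Of the 17 negative calls of 2 h, 10 were not called at 12 h, where their median was -0.34 after -0.69 at 2 h. The 12 features called at 12 h only had medians of -0.32 at 10 h, -0.56 at 12 h and -0.30 at 22 h. A call at 1 time and not at another does not show that the ratios differ.

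The time points just before and just after 12 h shared most of its positive calls. With 10 h, 193 positive features were shared, 76.9% of those at 12 h and 79.8% of the 242 at 10 h (2.26% of features tested then). With 22 h, 224 were shared, 89.2% of those at 12 h and 49.1% of the 456 at 22 h (4.25%). On the negative side 29 were shared with 10 h, 51.8% of the 12 h calls and 29.3% of the 99 at 10 h (0.923%). With 22 h 33 were shared, 58.9% and 18.9% of the 175 at 22 h (1.63%). No array belongs to more than 1 time point, but each feature's dye term and variance estimate are common to all.

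The calls of 10 h that 12 h did not share were smaller at 12 h, as the choice by calls favours. The 49 features called positive at 10 h but not at 12 h had a median of 0.55 at 10 h and 0.34 at 12 h. Of these, 40 had an unadjusted limma p under 0.05 at 12 h, against 11.9% of all features tested. The 70 called negative at 10 h but not at 12 h stood at -0.54 and -0.28. The difference between 12 h and 10 h was tested directly for 10700 features, and limma called 0. An unadjusted p under 0.05 was reached by 237 (2.21%). This does not show that the ratios were equal, as the median SE of the difference was 0.188. For the 251 positive calls of 12 h the median difference was 0.07, with 172 above 0, and for the 56 negative calls it was -0.08, with 15 above 0. Features chosen at 12 h lean this way by the choice itself.

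Between 12 and 22 h the ratio differed for 21 of 10699 features (0.196%), and 423 had an unadjusted p under 0.05. In all 21 the ratio was higher at 22 h, by 0.76 to 1.42 with a median of 1.11. Their median was 1.41 at 12 h and 2.60 at 22 h, and 19 of them were positive calls at 12 h. On the 4 arrays of 12 h the median of the 21 was 1.45, 1.14, 1.40 and 1.82, and on those of 22 h it was 2.47, 2.67, 2.94 and 2.38. The features were chosen for this difference on the same 8 arrays, so these medians are a description. The other 2 features stood at -0.16 and -0.06 at 12 h. None of the 21 belonged to the group of 17 with a shared profile. The median SE at 12 h was 0.353 in that group and 0.143 among the 21, so a difference of the same size was harder to call in the group. The count fell to 5, 0 and 0 without replicate 1, 2 or 3 at every time point (426, 406 and 501 unadjusted), and to 7 and 11 without replicate 2 or 3 at 12 h alone. With the arrays scaled to one spread it was 0 (350 unadjusted), and with a term for replicate number it was 49.

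The positive side of 22 h held 232 features not called at 12 h, including the 2 of the 21 that were not. Their median was 0.26 at 12 h and 0.55 at 22 h, and 204 were above 0 at 12 h, where 119 had an unadjusted limma p under 0.05. The 142 negative calls of 22 h not called at 12 h stood at -0.28 at 12 h and -0.51 at 22 h, with 139 of the 141 tested at 12 h below 0. Over all 10736 features tested at 12 h, 5176 were above 0, 5560 were below 0 and 1275 had an unadjusted limma p under 0.05. Each feature's variance estimate and dye term are common to both times, so the counts for the 2 sets are not independent of the choice. Among the 251 positive calls of 12 h, 183 were higher at 22 h (median difference 0.19), where 48.6% of all features were. Among the 56 negative calls, 31 had the higher ratio at 22 h (median difference 0.05).

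**Figure D5:**
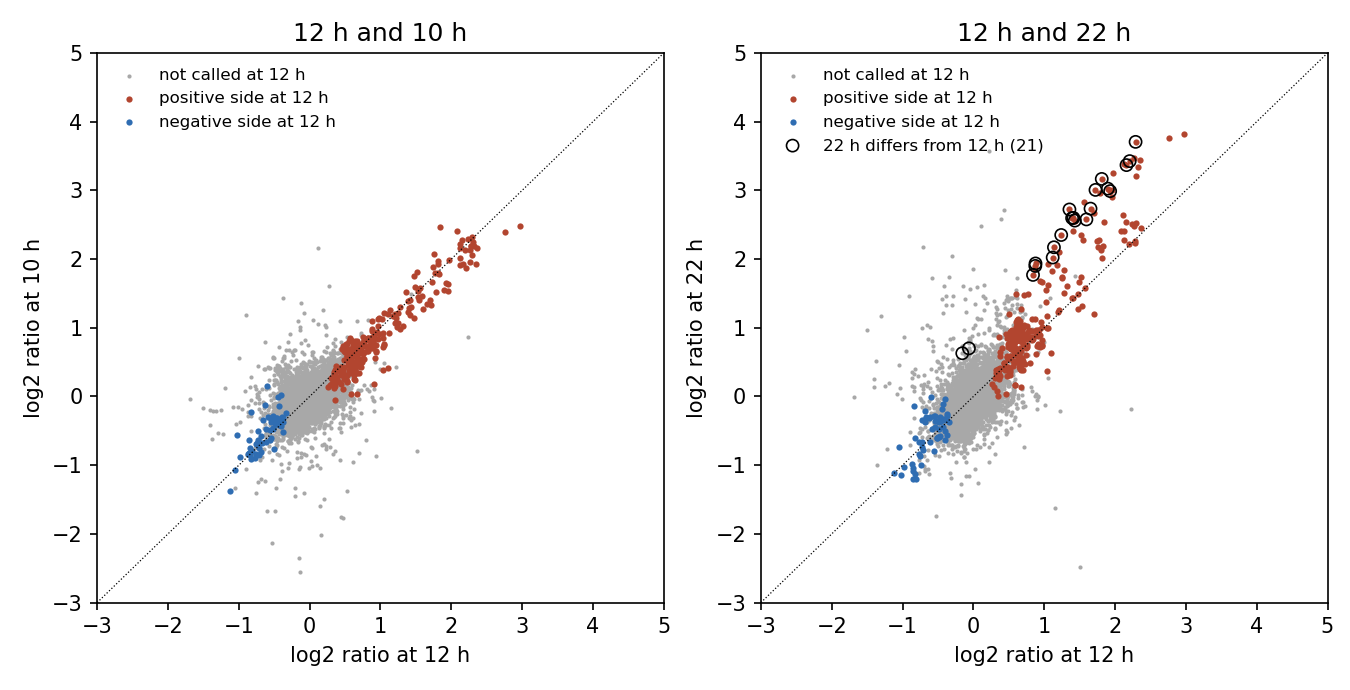
Each point is a feature, with its log2 ratio at 12 h on the x axis and at 10 h (left) or 22 h (right) on the y axis, and a dotted line of equal ratios. The positive calls of 12 h lie along the line at 10 h, where limma called 0 features as different from 12 h, and the 21 circled features lie above it at 22 h.

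Across all features the mean ratio at 12 h correlated with that at 10 h at r = 0.639 (10700 features) and with that at 22 h at r = 0.650 (10699). At 8, 6, 4 and 2 h r was 0.512, 0.458, 0.389 and 0.356, and at 0 h it was 0.00674. The correlation was lower the further back the time point lay. Without the 307 called features it was 0.395 with 10 h and 0.387 with 22 h. The points share the array design and each feature's estimated dye effect, and features are not independent replicates.

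The dye effect, estimated over all 32 arrays, differed from 0 for 29.6% of the features tested. It did so for 61 of the 251 positive calls (24.3%) and 18 of the 56 negative calls (32.1%). Its median size was 0.09 on the log2 scale among the positive calls, 0.08 among the negative calls and 0.08 over all features. These medians are smaller in size than the median ratios of 0.72 and -0.59 of the calls, which were chosen by their ratios. For single features the dye effect can be larger. It was -0.40 for GP005B2, 0.02 for GP009E11, 0.005 for GP136D9 and 0.15 for GP089G2.

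By their identifiers the positive calls were spread over most of the clone plates. Positive calls occurred on 102 of the 114 plate codes and negative calls on 40. A single plate held 12 positive calls, 12.8% of its 94 features tested, against 2.34% over all, and the next held 9 of 93. On the negative side 1 plate, that of GP136D9, held 5 calls among 96 features tested, against 0.522% over all. The 5 plates with the most negative calls held 15 of the 56. An adjacent well of the same plate held another positive call for 37 of the 251 positive calls (14.7%), against 8.13% of all features tested. For the negative calls this was so for 2 of 56 (3.57%), against 1.83% of all. How clones were assigned to plates is not given in the sources used here.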

How the data were processed

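The authors deposited 1 log10 ratio per feature and array for 10816 features. Per the labels, Rosetta Resolver was the authors' analysis software. The sources used here do not state the background correction, normalization, numerator or dyes. The log10 scale was read from the values, with array medians near 0 and extremes at exactly -2 and 2. No scanner signals were used, so signal over background is unknown, and precision is limited by how many arrays there are.

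The ratios were multiplied by 3.32193, replicates 2 and 4 were turned, and values with an absolute log10 of 2 or more were set to missing. A linear model with 1 coefficient per time point and a dye term was fitted to the 32 arrays by lmFit and eBayes (limma 3.58.1, R 4.3.3, 23 residual degrees of freedom for complete features). Features needed 1 value per orientation at each time point compared. Tests were two-sided, adjusted by Benjamini-Hochberg over all features tested, with a threshold of 0.05, and the fit was tested on simulated data. All adjusted p-values are from limma.

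Named features were the 2 most positive and 2 most negative called ratios with 1 sign on all 4 arrays of 12 h. Gene lists and cell type markers (floral regulators and LFY targets, MADS-box, meristem, hormone, cell cycle, photosynthesis and stress genes, callus, root, shoot, flower and anther markers) could not be tested without gene names. The members, lists and tests were chosen with earlier results of these data known. The alternatives varied limit values, arrays, dye and replicate terms, scaling, filters and threshold.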

Additional observations from a re-analysis of the deposited data

Results flagged for a closer look

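Dixon's criterion for a single distant array was applied to 61 sets of 4 arrays and met by 2 of them. By chance about 1 set in 20 would meet it, which is 3.05 of 61. Feature GP009E11 had 5.87 on replicate 1 at 4 h. The negative calls of 12 h had a median of -0.75 on replicate 1 at 6 h, where the other 3 arrays held -0.37, -0.38 and -0.35.

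Ratios differed between 12 h and 0 h for 111 features and between 22 h and 12 h for 21 features, by limma's test of the difference itself. Among the named features, 12 h minus 0 h was 2.995 for GP005B2, 2.73 for GP009E11 and -1.36 for GP089G2.

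Limit values, which the comparisons leave out, stood on the same side in both orientations for 4 features at 12 h, 3 positive and 1 negative, against 0 at 0 h. There were 17 such features at 2 h (all negative), 38 at 4 h and 29 at 6 h (all positive), 36 at 8 h (35 negative), 3 at 10 h (all positive) and 22 at 22 h (21 positive). Their levels are known only as beyond the limit of the record. Replicate 2 held 333 upper-limit values at 2 h and 476 at 8 h, which turning made negative. Replicate 3 at 4 h held 321, and replicate 1 held 185 at 6 h and 159 at 22 h, none of them turned. At these times the side of most such features was thus that of the array richest in upper-limit values. The cause was not tested.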

How the results depend on the processing

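The 307 calls at 12 h became 108 with the 4 arrays alone (98 positive, 10 negative), 157 with replicates 1 and 2, and 3 and 4, averaged as dye swaps (145 and 12), 188 at a threshold of 0.01 (17 negative) and 132 without the arrays with over 100 upper-limit values (125 and 7), which leaves replicates 3 and 4 at 12 h. Scaling the arrays moved the negative side to 125. Turning the sign exchanges the sides (56 positive, 251 negative) and gives -2.97 for GP005B2, -2.76 for GP009E11, 1.12 for GP136D9 and 1.05 for GP089G2. With 1 replicate number left out everywhere, the counts were 186 to 299 (169 to 243 positive, 17 to 56 negative), and with only 1 array of 12 h left out, an alternative chosen after seeing the data, 186 to 242 (170 to 211 positive, 16 to 37 negative).

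For 12 h minus 0 h the 111 became 65 with those time points alone, 53 averaged, 178 scaled (147 positive and 31 negative), 71 at 0.01 and 69 without the limit-rich arrays. It was 73 to 85 with a replicate number left out and 84 to 99 with 1 array of 12 h left out. For 22 h minus 12 h the 21 became 0 with those time points alone (354 unadjusted), 3 averaged, 0 scaled (350), 10 at 0.01 and 0 without the limit-rich arrays (444), 0 to 18 without a replicate number and 7 to 24 without 1 array of 12 h. For 12 h minus 10 h all 22 alternatives gave 0 (159 to 343 unadjusted, limma). The 2 named positive features passed in all 22. GP089G2 did not without the limit-rich arrays (-0.77, adjusted p = 0.0661), nor GP136D9 there (-0.48, 0.642), with 12 h alone (0.152) or averaged (0.257). The causes were not tested.

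Replicate numbers are shared between time points. Between 12 h and 0 h, residuals of same-numbered arrays correlated between -0.102 and 0.068. With 10 h the range was 0.092 to 0.219, and with 22 h it was 0.054 to 0.162. The main fit took the arrays as sharing only a number, so any pairing with 10 or 22 h is left out of it. At 10 h all 4 arrays of 12 h correlated best with their own number, at 0 and 22 h 0 of 4 did. With the replicate block the counts were 481 (128 negative) at 12 h, 183 for 12 h minus 0 h, 0 for 12 h minus 10 h and 49 for 22 h minus 12 h. The call of no named feature's 12 h ratio changed with it.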
